A study of Mus musculus with 8 samples.

Results

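Zeb1, Zeb2, Snai1, Snai2, Twist1 and Twist2 are transcriptional repressors known for driving epithelial-mesenchymal transition, and their transcripts were followed in sorted mouse satellite cells after muscle injury. The 6 genes were taken as every non-control probe whose gene name on the array was a member's symbol, which gave 7 of 55681 probes and 6 of 21245 named genes. Of these, 5 probes and 4 genes (Zeb1, Zeb2, Snai2 and Twist2) were bright enough to test, their probe standing well above background on 3 or 4 arrays of a group, among 31315 probes and 13434 genes. The Snai1 and Twist1 probes were above background on no array.

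Satellite cells are the resident stem cells of skeletal muscle. The injured group held cells from muscle taken 3 days after cardiotoxin, which kills muscle fibres, and the basal group held cells from uninjured muscle, with 4 1-colour Agilent arrays in each. All mice were labelled as C57BL/6 males aged 3 months, and cells of both groups were sorted as positive for integrin alpha 7 and negative for CD31, CD45, CD11b and Sca1. Each array was labelled as a separate biological replicate, with no statement on pooling of animals.

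Zeb1 and Zeb2 carry zinc fingers at both ends and a homeodomain between them, Snai1 and Snai2 (Slug) carry zinc fingers, and Twist1 and Twist2 are basic helix-loop-helix (bHLH) proteins. All bind E-boxes, short motifs of the form CANNTG, and the Zeb and Snail proteins are best known for shutting down E-cadherin and other epithelial genes through the CACCTG form. In muscle the same motifs are read by MyoD and its partners, and members of these families are known to compete with MyoD for E-boxes or for E-protein partners.

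The Snai1 promoter and those of 5 epithelial genes are shown because they hold the CACCTG letters, and the epithelial genes stand for the known targets of these repressors whose levels are given further on. Each run is the RefSeq promoter window of build GRCm38.p6, 250 bases before to 50 bases after the gene's start on the gene's strand, 5′ to 3′, with CACCTG or its reverse complement CAGGTG in capitals. The windows are chr2:167537945-167538244 (+) for Snai1, chr15:102004293-102004592 (-) for Krt8, chr15:102027966-102028265 (+) for Krt18, chr5:134946885-134947184 (-) for Cldn4, chr3:89228806-89229105 (+) for Muc1 and chr17:87635729-87636028 (+) for Epcam.
Snai1: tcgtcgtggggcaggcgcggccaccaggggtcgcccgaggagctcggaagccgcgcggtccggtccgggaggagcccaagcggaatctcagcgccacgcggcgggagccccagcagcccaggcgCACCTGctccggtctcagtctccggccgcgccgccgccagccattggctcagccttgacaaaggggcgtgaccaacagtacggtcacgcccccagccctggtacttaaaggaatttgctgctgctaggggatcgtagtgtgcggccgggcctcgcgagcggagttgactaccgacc
Krt8: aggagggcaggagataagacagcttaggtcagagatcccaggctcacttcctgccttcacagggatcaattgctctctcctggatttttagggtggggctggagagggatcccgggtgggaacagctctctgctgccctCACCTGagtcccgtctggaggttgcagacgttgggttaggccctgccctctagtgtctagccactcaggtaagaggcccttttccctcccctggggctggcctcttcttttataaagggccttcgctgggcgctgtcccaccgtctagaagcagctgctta
Krt18: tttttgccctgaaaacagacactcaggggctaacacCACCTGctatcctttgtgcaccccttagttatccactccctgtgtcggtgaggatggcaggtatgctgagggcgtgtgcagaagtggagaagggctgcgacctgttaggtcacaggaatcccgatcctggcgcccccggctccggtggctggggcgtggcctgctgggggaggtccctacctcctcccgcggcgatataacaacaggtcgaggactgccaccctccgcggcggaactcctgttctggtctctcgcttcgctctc
Cldn4: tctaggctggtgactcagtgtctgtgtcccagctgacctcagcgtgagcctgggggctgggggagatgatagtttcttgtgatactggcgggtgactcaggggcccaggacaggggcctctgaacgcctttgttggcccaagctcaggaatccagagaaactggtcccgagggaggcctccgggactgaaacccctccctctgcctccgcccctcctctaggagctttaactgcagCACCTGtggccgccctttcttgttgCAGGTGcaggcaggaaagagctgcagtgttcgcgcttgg
Muc1: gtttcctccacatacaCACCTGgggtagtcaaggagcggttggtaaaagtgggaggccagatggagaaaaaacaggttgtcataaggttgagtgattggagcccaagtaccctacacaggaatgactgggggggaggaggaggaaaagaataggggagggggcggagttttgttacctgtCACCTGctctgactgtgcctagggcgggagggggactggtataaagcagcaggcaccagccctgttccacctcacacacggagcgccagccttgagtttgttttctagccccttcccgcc
Epcam: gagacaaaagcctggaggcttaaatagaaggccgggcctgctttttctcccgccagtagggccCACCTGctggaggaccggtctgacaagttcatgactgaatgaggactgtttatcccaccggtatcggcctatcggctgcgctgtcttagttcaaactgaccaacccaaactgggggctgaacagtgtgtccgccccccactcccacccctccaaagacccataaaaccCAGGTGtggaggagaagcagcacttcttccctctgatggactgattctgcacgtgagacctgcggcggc

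The motif began 126 bases before the Snai1 start, 111 bases before that of Krt8 and 214 bases before that of Krt18. Cldn4 held a copy 14 bases before and another 11 bases after its start, Muc1 held copies at 234 and 70 bases before, and Epcam at 187 and 19 bases before. Among the members, Snai1 held the motif in its only window, Zeb2 in 0 of 4 windows, and Twist1 and Twist2 in 0 of 1 window each. No window of Zeb1 or Snai2 was used here. These are matches of letters in a fixed window and not mapped binding sites.

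Values are log2 processed signals minus the 75th percentile of the array, and levels are compared only within a probe. Where a probe was above background on some arrays of a group, their number is given, and a difference set against the other, dim arrays of that group has an uncertain size. Over all genes tested, 4766 were higher and 3316 lower in injured arrays at an adjusted p under 0.05 (limma, Benjamini-Hochberg), and the median difference was 0.17 on the log2 scale. The higher genes were 59.0% of the calls here and 81.3% in the authors' deposited table, where the median difference was 0.48. By the file headers, all injured arrays were on 1 slide and all basal arrays on another, so slide and group cannot be told apart. The p-values measure the spread among these 8 arrays, whose small number limits the precision. Basal 1 and 2 stood apart: the endothelial gene Pecam1 (CD31), against which the cells were sorted, was at -3.11 to -1.82 in injured arrays, at 3.20 and 2.87 in basal 1 and 2, and at -2.20 and -3.22 in basal 3 and 4. Xist, transcribed from the inactive X of female cells, was at 1.72 in injured 1, at 6.37 to 6.57 in injured 2, 3 and 4, and at 3.85, 2.15, -1.12 and -4.97 in basal 1 to 4, although all mice were labelled male. The Y-linked Ddx3y was above background on injured 1 alone among injured arrays and on all 4 basal arrays. Values without basal 1 and 2, or without injured 2, 3 and 4, are given where they bear on a member.

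Zeb1 and Zeb2 transcripts were lower in injured than in basal satellite cells, by 1.93-fold and 2.07-fold in the scanner signals, whereas the difference of Snai2 and of Twist2 did not pass the test and Snai1 and Twist1 were not measurable. In the authors' deposited table neither the Zeb1 probe nor the brighter Zeb2 probe was called, and the second Zeb2 probe was called lower. The Zeb1 probe (chr18:5774613-5774672, plus strand, mm9, starting at base 4921 of the transcript) was at 2.22, 2.26, 2.73 and 2.56 in injured 1 to 4, against 2.95, 3.49, 3.63 and 3.50 in basal 1 to 4. Every injured array lay below every basal array, with a gap of 0.22 between the groups. The means were 2.44 ± 0.25 in injured and 3.39 ± 0.30 in basal arrays (SD, n = 4 each), a difference of -0.95 ± 0.19 (SE) or 1.93-fold lower in injured cells, with an adjusted p of 0.00274 in limma.

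Zeb2, the close relative of Zeb1, was read by 2 probes at different places of its transcript. The brighter probe (chr2:44842774-44842833, minus strand, from base 5433) was at -1.36, -1.36, -1.16 and -1.10 in injured arrays, against -0.35, -0.08, 0.35 and -0.69 in basal arrays. The groups did not overlap and lay 0.40 apart. The means were -1.24 ± 0.14 in injured and -0.19 ± 0.44 in basal arrays (SD, n = 4 each), a difference of -1.05 ± 0.22 (SE) or 2.07-fold lower, with an adjusted p of 0.00325 in limma.

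The second Zeb2 probe (chr2:44840038-44840097, from base 8169) was at -2.12, -2.43, -2.64 and -3.00 in injured arrays, against -1.03, -1.45, -0.76 and -1.35 in basal arrays. It was not well above background on injured 4 and was above it on the other 7 arrays. Again no injured array reached a basal array, with a gap of 0.67. The difference was -1.40 ± 0.23 (SE), 2.63-fold lower, with an adjusted p of 0.00102 over all probes tested in limma, where 56.9% of probes were called. Both probes thus gave the same direction, and their positions lie in transcribed sequence, whose split into coding and untranslated parts was not analysed here.

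**Figure D1:**
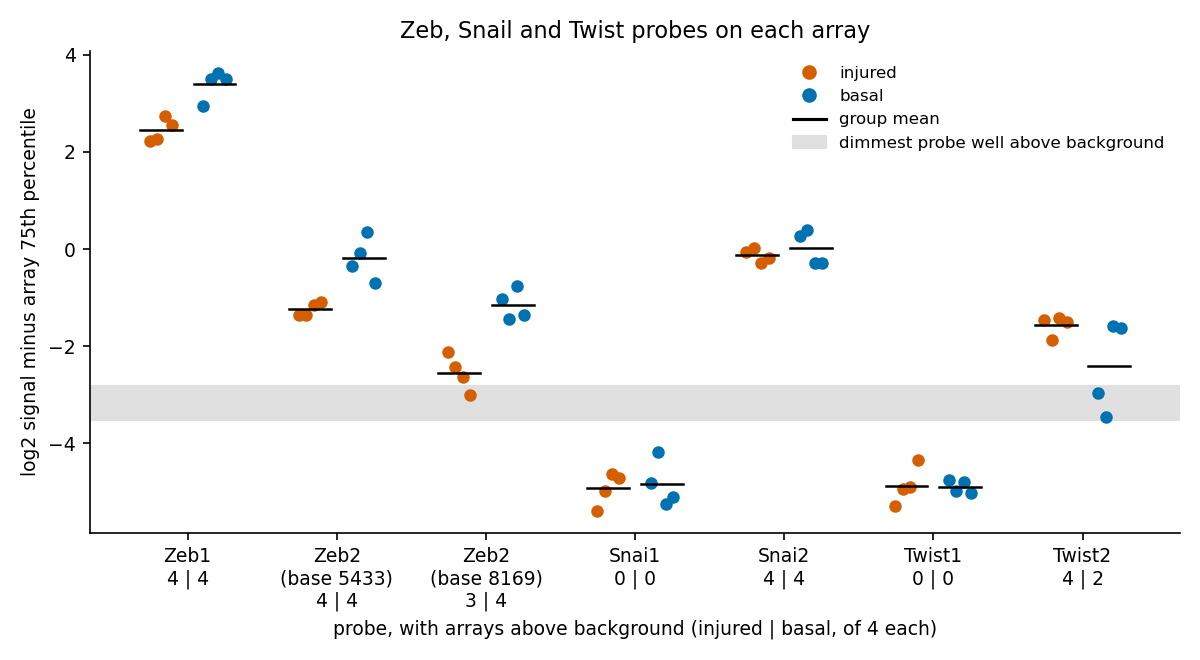
Each point is 1 array, with log2 processed signal minus the array's 75th percentile on the vertical axis and the 7 probes on the horizontal axis, injured arrays left of basal arrays, and bars at the group means. The Zeb1 probe and both Zeb2 probes show injured arrays wholly below basal arrays, the Snai2 groups overlap, Twist2 in basal 1 and 2 lies under the other arrays, and Snai1 and Twist1 lie below the grey band of the dimmest well-measured signals.

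Taken as a count, 2 of the 4 genes tested were called, both lower in injured arrays, where 60.2% of all genes tested were called and 24.7% were called lower. The same 2 of 4 had groups that did not overlap, where 57.2% of all genes tested did not overlap. The members were therefore called at a share near that of all genes. By size, 15.6% of genes tested had a difference as low as that of Zeb1 or lower, and 13.9% as low as that of Zeb2 or lower. Relative to the median of all genes the differences were -1.12 for Zeb1 and -1.22 for Zeb2.

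The offset of Zeb2 to Zeb1 within each array was compared between the groups. Zeb2 (brighter probe) minus Zeb1 was -3.57, -3.62, -3.89 and -3.66 in injured arrays, against -3.31, -3.57, -3.27 and -4.19 in basal arrays. The groups overlapped, and the offset, which compares change and not abundance because the probes differ, averaged -3.68 ± 0.14 in injured and -3.59 ± 0.43 in basal arrays (SD, n = 4 each). Its difference between the groups was -0.10, with a two-sided exact permutation p of 0.629 over 70 splits, the smallest possible being 0.0286. Without basal 3 the difference of the offset was 0.01 (exact permutation p = 0.971). Without basal 4, the array with the lowest offset, it was -0.30 (exact permutation p = 0.0571). Both tests had fewer splits. The Snail and Twist pairs could not be compared in this way, since 1 gene of each pair was not above background.

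The fall of the Zeb genes differed between the scanner signals and the normalized values that the authors deposited. In the authors' deposited table Zeb1 was at 11.25, 11.62, 11.99 and 11.86 in injured 1 to 4, against 12.30, 12.05, 11.78 and 10.68 in basal 1 to 4, and its difference was -0.02 with an adjusted p of 0.968 (limma). The same table gave the brighter Zeb2 probe a difference of 0.50 with an adjusted p of 0.521, and the second Zeb2 probe a difference of -1.47 with an adjusted p of 0.0276. In that table basal 4 had the lowest value of all basal arrays for Zeb1 and for the brighter Zeb2 probe. Across probes, the authors' columns correlated with the scanner values of the same array at r = 0.846, 0.941, 0.923 and 0.936 for injured 1 to 4, and at 0.952, 0.765, 0.678 and 0.571 for basal 1 to 4. The authors' columns of injured 1, 3 and 4 correlated most with the scanner values of injured 2, in a group whose scanner values correlate at 0.989 to 0.996 between arrays, and each basal column correlated most with its own array. Among 399 probes spotted 10 times, the median SD of the spots in the authors' columns of basal 2, 3 and 4 was 0.30, 0.41 and 0.41, against 0.16, 0.18 and 0.20 in the scanner values. The part of this spread in the difference between the sources was not tested.

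Zeb1 and Zeb2 remained called with either basal 1 and 2 or any single array left out. Without basal 1 and 2 the differences were -1.12 (adjusted p = 0.00177) for Zeb1 and -1.07 (adjusted p = 0.0143) for Zeb2 in limma. With injured 1 as the only injured array they were -1.17 (adjusted p = 0.0789) and -1.16 (adjusted p = 0.127), a fit that takes the spread of that array from the basal group. With normexp background correction Zeb1 stayed at -0.87 while Zeb2 came to -0.56, still called.

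**Figure D2:**
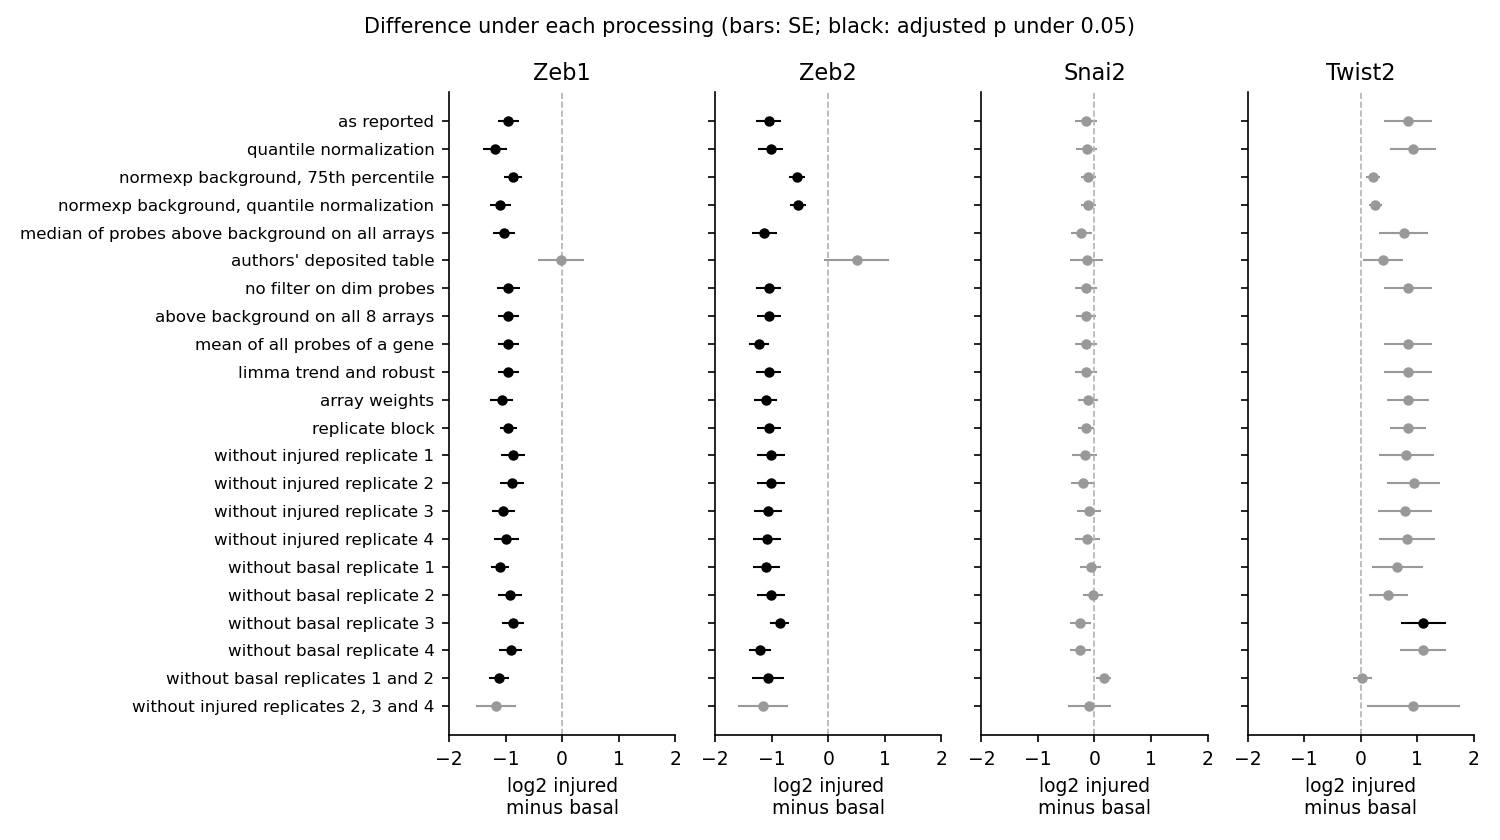
Log2 difference, injured minus basal, of the 4 tested genes (horizontal axes) as reported and under each alternative (rows), with bars of 1 SE and black points where the adjusted p was under 0.05. Zeb1 and Zeb2 are called in 19 of 21 alternatives each, the exceptions being the authors' deposited table and the fit with injured 1 alone, and Twist2 is called only without basal 3.

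Snai2 (Slug), a zinc finger repressor known in myoblasts as a competitor of MyoD, was above background on all 8 arrays. Its probe (chr16:14709361-14709420, plus strand, from base 1896) was at -0.06, 0.03, -0.28 and -0.19 in injured arrays, against 0.27, 0.39, -0.28 and -0.28 in basal arrays. The groups overlapped, with basal 1 and 2 above all other arrays and basal 3 and 4 at the level of the lowest injured array. The difference was -0.15 ± 0.19 (SE), with a 95% interval of -0.58 to 0.28 and an adjusted p of 0.519 in limma. Without basal 1 and 2 it was 0.16 (adjusted p = 0.35).

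Snai1, the Snail repressor best known for silencing Cdh1, was not measured above background. Its probe (chr2:167368073-167368132, plus strand) was at -5.39 to -4.62 in injured and at -5.24 to -4.17 in basal arrays. The dimmest probe that was well above background on an array was at -3.51 to -2.81 in injured and at -3.26 to -3.01 in basal arrays, so that the Snai1 probe lay under that level throughout. A level too dim for this array cannot be told from no transcript, nor from a single probe that reports its transcript poorly. No fold change is given.

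Twist1, which in mammals restrains MyoD and Mef2 proteins, was in the same position. Its probe (chr12:34644411-34644470, plus strand) was at -5.29 to -4.35 in injured and at -5.02 to -4.76 in basal arrays, above background on none. When the filter on dim probes was dropped, the adjusted p was 0.862 for Snai1 and 0.968 for Twist1 (limma), with 36.9% of genes called in that fit.

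Twist2 (Dermo1), a bHLH repressor known from dermal and other mesenchymal cells, was measured on some arrays only. Its probe (chr1:93744519-93744577, plus strand, from base 1226) was at -1.47, -1.88, -1.41 and -1.51 in injured arrays, against -2.96, -3.46, -1.58 and -1.62 in basal arrays. It was above background on all 4 injured arrays and on basal 3 and 4, and not on basal 1 and 2. The difference was 0.84 ± 0.42 (SE), with a 95% interval of -0.12 to 1.80 and an adjusted p of 0.115 in limma.

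The Twist2 value rested on the low basal arrays. Without basal 1 and 2 the difference was 0.03 (adjusted p = 0.879), and without basal 3 it was 1.11 (adjusted p = 0.0446, limma). Basal 1 and 2 are also the arrays with high endothelial transcripts: the summed linear level of 16 endothelial markers was 13.3 to 16.1 in injured arrays and 97.2, 63.1, 30.8 and 26.9 in basal 1 to 4. These sums include Tek, which was at 3.50, 3.13, 4.33 and 3.97 in basal 1 to 4, against -1.24 to -0.44 in injured arrays. Tek was thus high in every basal array, whereas Pecam1 was high in basal 1 and 2 only. Snai2 was high and Twist2 low in those 2 arrays, and the part of the endothelial signal in either was not tested.

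**Figure D3:**
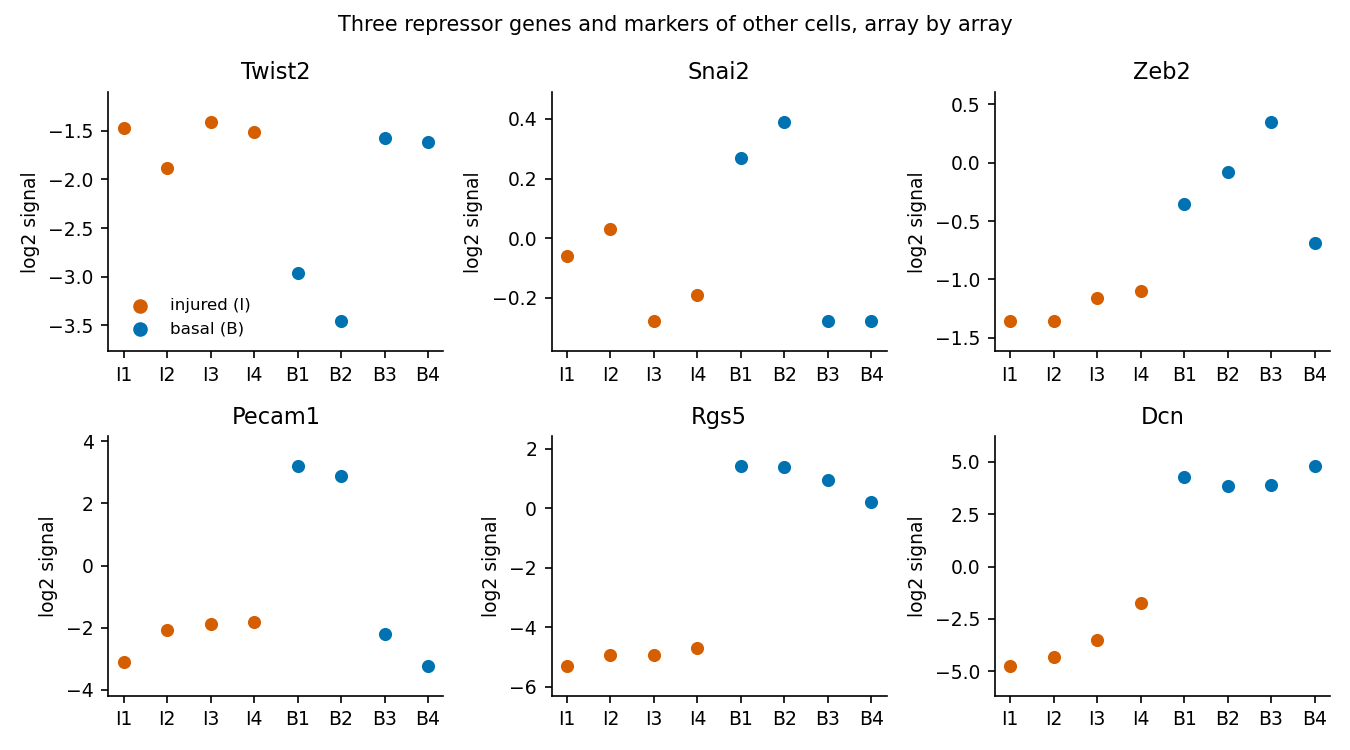
Log2 signal of Twist2, Snai2, Zeb2, Pecam1, Rgs5 and Dcn on injured arrays 1 to 4 (left) and basal arrays 1 to 4 (right), each panel with its own vertical axis. Basal 1 and 2 stand apart for Twist2 (-2.96 and -3.46), Snai2 (0.27 and 0.39) and the endothelial Pecam1 (3.20 and 2.87), whereas Zeb2, Rgs5 and Dcn are lower in every injured array than in any basal array.

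Most markers tested for pericytes, for the mesenchymal cells of muscle and for glia or tendon were lower in injured arrays, as were the Zeb genes. Most endothelial and leukocyte markers tested were not called. In bulk RNA, fewer cells of a type and less RNA per cell cannot be told apart. Of 12 pericyte and smooth muscle markers tested, 7 were lower in injured arrays and 0 higher, where 24.7% of all genes tested were lower. Their summed linear level was 67.4 to 95.7 in injured and 152 to 213 in basal arrays. Notch3 made up 12.9 to 22.5 of the injured and 79.3 to 138 of the basal sums. The other markers overlapped, at 53.4 to 78.8 in injured and 63.4 to 104 in basal arrays. They include Des, which is also on the satellite cell list. Rgs5, a pericyte marker, was above background on no injured array and on all 4 basal arrays and was at least 18.2-fold lower in injured cells (adjusted p = 2.6e-06, limma), where such bounds set the dim group at the dimmest well-measured signal of each array.

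Of 10 markers of fibro-adipogenic progenitors (FAPs, the mesenchymal cells of muscle) tested, 8 were lower and 1 higher, with summed levels of 54.5 to 93.7 in injured and 76.9 to 114 in basal arrays. Col1a2, the higher gene, made up 46.9 to 82.7 of the injured sums, and the other markers summed to 7.7 to 11.0 in injured and 61.7 to 93.5 in basal arrays. The FAP marker Dcn (decorin) was at -4.73 to -1.73 in injured arrays, 1 of them above background, and at 3.86 to 4.79 in basal arrays, while Pdgfra, which defines these cells, was above background on no array. Of 7 glial and tendon markers tested, 5 were lower and 1 higher, with sums of 21.9 to 30.5 in injured and 33.5 to 48.0 in basal arrays. The brightest of this list was Ncam1, which was not called. The other glial and tendon markers overlapped, at 7.86 to 10.3 in injured and 6.09 to 31.6 in basal arrays. Of 12 endothelial markers tested, 2 were lower and 1 higher. Of 11 macrophage and leukocyte markers tested, 1 was lower and 3 higher, with sums of 498 to 589 in injured and 476 to 545 in basal arrays, mostly from the Itgam probe, without which they were 42.9 to 45.1 in injured and 48.1 to 52.9 in basal arrays. The higher genes were Laptm5 (3.97 ± 0.66, 1 basal array above background), Tyrobp (1.99 ± 0.60, 2 basal arrays above background) and Cd3e (0.37). Ptprc (CD45) was at -1.45 to -0.91 in injured and at -1.67 to -0.03 in basal arrays, and the Itgam (CD11b) probe was at 8.83 to 9.09 in injured and 8.74 to 8.95 in basal arrays. The part of these cells in the Zeb1 and Zeb2 difference was not tested.

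Most markers of satellite cells themselves were above background in both groups. Of 13 listed, 11 were above it on each injured array and 12 on each basal array. Calcr was above background on no injured array and was at least 32.9-fold lower in injured cells. Chodl was at -1.01 to 1.22 in injured and at 6.13 to 7.33 in basal arrays. Myf5 was above background on no array. Itga7, the integrin used in the sort, was higher in injured arrays at 2.29 to 2.35, against 1.01 to 1.60 in basal arrays (adjusted p = 3.7e-04, limma). Of 12 satellite cell markers tested, 7 were lower and 3 higher, where 24.7% of all genes tested were lower and 35.5% higher. Pax7, the transcription factor of quiescent satellite cells, was lower at 1.81 to 1.99 in injured arrays, against 4.38 to 5.40 in basal arrays.

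The co-repressors that Zeb and Snail proteins recruit were mostly higher in injured cells, opposite to Zeb1 and Zeb2. Of 22 tested, 18 were higher, 1 lower and 3 not called, where 35.5% of all genes tested were called higher, and their median difference was 0.96, against 0.17 over all genes. Ajuba, a LIM adaptor of Snail, differed by 2.66 ± 0.44 (SE), with values of -0.50 to 0.19 in injured and -4.15 to -2.04 in basal arrays, 2 of them above background. Ezh2, the methyltransferase of Polycomb repressive complex 2, differed by 2.39 ± 0.42 with 1 basal array above background, and the H3K9 methyltransferase Suv39h1 by 2.02 ± 0.23.

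Mta2, a subunit of the NuRD histone deacetylase complex, was at 3.39 to 3.89 in injured and at 1.5 to 2.14 in basal arrays, a difference of 1.81 ± 0.18. Ehmt2 (G9a), another H3K9 methyltransferase, was the 1 lower gene, at -0.69 ± 0.12. Adjusted p-values of these 5 genes were between 7.9e-05 and 0.00141 in limma. Ctbp1, a co-repressor of Zeb proteins, was higher by 0.56 (adjusted p = 0.0211), while its paralog Ctbp2 differed by -0.04 (adjusted p = 0.813). Among the co-repressors 10 were higher and 0 lower in the authors' deposited table. Over all genes, 3281 were higher and 754 lower there.

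Regulators of Snail protein stability were called at a share near that of all genes. Of 14 tested, 7 were higher and 2 lower (64.3% called, against 60.2% of all genes tested), with a median difference of 0.34. Over all genes tested, 35.5% were higher and 24.7% lower. Pak1, a kinase that phosphorylates Snail, was at -0.54 to -0.09 in injured and at -3.78 to -1.98 in basal arrays, 2 of them above background, a difference of 2.49 ± 0.37 (SE, adjusted p = 5.8e-04, limma). The other named higher genes were Cops2, a signalosome subunit (0.84 ± 0.14), the catalytic subunit of casein kinase 2, Csnk2a1 (0.63 ± 0.11), and Fbxl14, the mouse counterpart of a frog ubiquitin ligase component that targets Snail and Twist proteins (0.63 ± 0.17). The Snail phosphatase Ctdsp1 was lower by -0.44 ± 0.12 and the ubiquitin ligase component Fbxo11 by -0.46 ± 0.17, with an adjusted p of 0.0422 for the second, which was above background on 2 injured arrays.

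Genes on a list of bHLH proteins and their inhibitors, called bHLH partners here, were mostly lower. The list includes repressors such as Hes1, Heyl and Bhlhe40, whose pairing with Twist was not examined. Of 13 tested, 9 were lower and 1 higher, where 24.7% of all genes tested were lower and 35.5% higher, and the median difference was -1.54. Bhlhe40, a transcriptional repressor of this family, differed by -4.57 ± 0.29 (SE), with values of -3.16 to -2.83 in injured arrays, 1 of them above background, and 0.78 to 2.25 in basal arrays. The Notch effector Heyl differed by -4.19 ± 0.31, and Msc (MyoR), a bHLH repressor of myogenesis, by -3.51 ± 0.30. Hes1, another Notch effector, was above background on no injured array and on all 4 basal arrays, at least 11.9-fold lower in injured cells. The 1 higher gene was Tcf21, a bHLH factor of mesenchymal cells, at 0.50 ± 0.14 (adjusted p = 0.0131, limma). Tcf3, the E-protein that Twist and MyoD share as a partner, differed by 0.28 (adjusted p = 0.12), and the E-protein Tcf12 by 0.32 (adjusted p = 0.181). The E-protein Tcf4 was lower, at 0.81 to 1.43 in injured and at 2.36 to 3.07 in basal arrays, a difference of -1.54 ± 0.20 (adjusted p = 2.8e-04). Id3, an inhibitor of E-proteins, was lower at 2.32 to 2.64 in injured arrays, against 4.47 to 5.44 in basal arrays, by -2.44 (adjusted p = 3.9e-05). Of these genes 5 were lower and 2 higher in the authors' deposited table, against 754 lower and 3281 higher over all genes.

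Of 9 relatives of the 3 families tested, 3 were higher and 2 lower, a share called (55.6%) near the 60.2% of all genes tested. Scx (scleraxis), a bHLH factor of tendon that is also among the tendon markers, was at 2.77 to 3.23 in injured and at 1.27 to 1.97 in basal arrays, a difference of 1.36 ± 0.18 (SE, adjusted p = 3.2e-04, limma). Mesp2, a bHLH factor of somite formation, differed by 0.55 ± 0.14 and the Snail relative Scrt1 by 0.47 ± 0.15. Zfhx3, a large zinc finger homeodomain protein like the Zeb genes, was lower by -1.09 ± 0.19. Ovol2, a zinc finger repressor known to oppose Zeb1 in epithelia, was lower by -0.68 ± 0.11. Its probe was very bright, at 8.33 to 8.53 in injured and at 9.01 to 9.16 in basal arrays. Whether that signal is specific to Ovol2 was not tested. Snai3, the third Snail gene, differed by 0.34 (adjusted p = 0.382). None of these 5 calls was made in the authors' deposited table, where 0 relatives were higher and 0 lower. Over all genes, that table had 3281 higher and 754 lower.

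Signals and factors upstream of Zeb, Snail or Twist genes, inhibitors included, were more often lower than higher in injured arrays. Of 23 tested, 11 were lower and 4 higher, where 24.7% of all genes tested were lower and 35.5% higher. In either direction 65.2% were called, against 60.2% of all genes tested, and the median difference was -0.34. The TGF-beta co-receptor Tgfbr3 was at -1.22 to -0.22 in injured and at 4.0 to 5.0 in basal arrays, a difference of -5.40 ± 0.29 (SE, adjusted p = 5.4e-06, limma). The immediate early gene Egr1 differed by -3.31 ± 0.21, the SMAD antagonist Skil by -2.67 ± 0.20, and the FGF receptor Fgfr1 by -2.10 ± 0.19. In the other direction, Hmga2, a chromatin protein, differed by 4.81 ± 0.92 and the proliferation factor Foxm1 by 3.1 ± 0.37. Hmga2 was at 2.18 to 3.22 in injured arrays, at 0.58 and -1.39 in basal 1 and 2 and at -4.08 and -3.48 in basal 3 and 4, with 2 basal arrays above background. The authors' deposited table gave lower values for 4 of these genes.

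**Figure D4:**
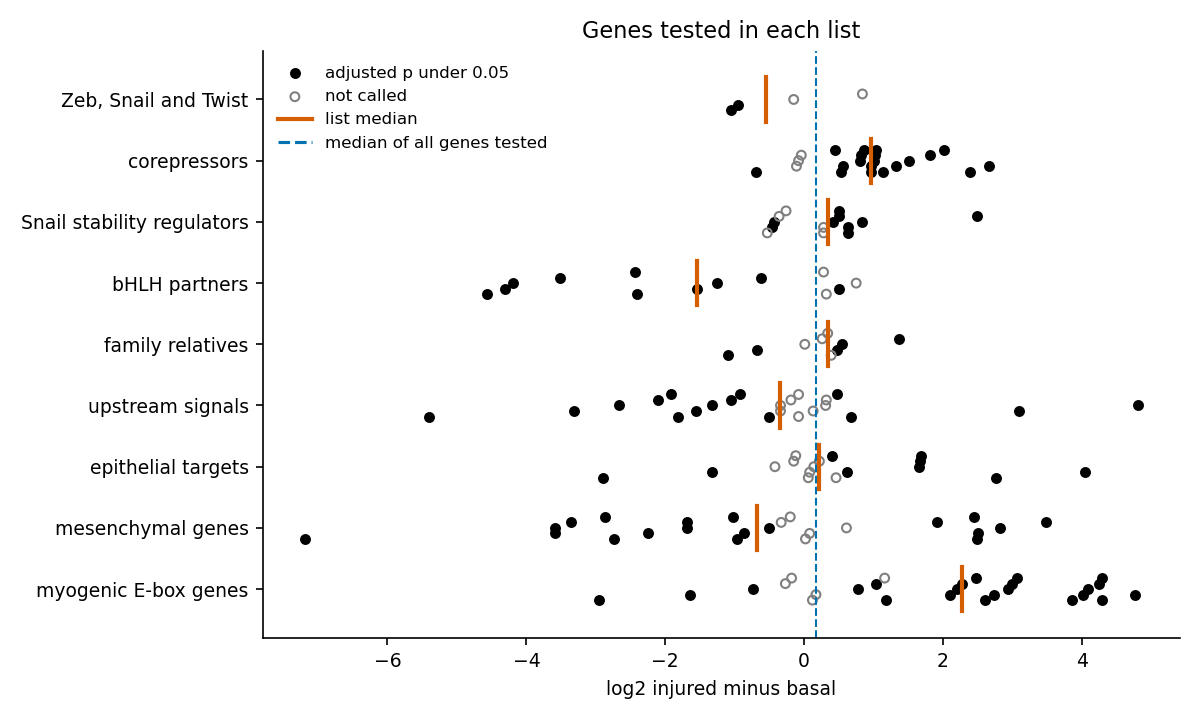
Log2 difference, injured minus basal (horizontal axis), of each gene tested in 9 lists (rows), filled where the adjusted p was under 0.05, with the list median in orange and the median of all genes tested (0.17) dashed. Co-repressors and myogenic genes lie mostly to the right, with medians of 0.96 and 2.28, and bHLH partners and mesenchymal genes mostly to the left, with medians of -1.54 and -0.68.

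Epithelial genes that these repressors are known to silence were in part too dim to measure. Of 32 on the list, 13 were above background on no array, among them Cdh1 (E-cadherin), at -5.30 to -4.67 in injured and -5.18 to -4.79 in basal arrays, and Epcam, at -5.30 to -4.40 in injured and -4.95 to -4.38 in basal arrays. Of 17 tested, 7 were higher and 2 lower, where 35.5% of all genes tested were called higher and 24.7% lower, and the median was 0.22.

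The higher epithelial genes included the keratin pair of simple epithelia. Krt8 was at 0.44 to 1.01 in injured and at -4.44 to -1.68 in basal arrays, of which 1 was above background, a difference of 4.05 ± 0.53 (SE, adjusted p = 3.0e-04, limma). Its partner Krt18 was at 0.84 to 1.48 in injured and at -0.91 to -0.10 in basal arrays, a difference of 1.69 ± 0.21 (adjusted p = 2.5e-04). The groups did not overlap for either keratin.

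Cldn4, a tight junction claudin, was at 0.43 to 1.03 in injured and at -1.29 to 0.10 in basal arrays, a difference of 1.67 ± 0.31 (adjusted p = 0.00193). The lower genes were Jup (plakoglobin), which links cadherins to the cytoskeleton, at -2.90 ± 0.21, and the mucin Muc1, above background on no injured array and on 3 basal arrays, at least 2.12-fold lower in injured cells (adjusted p = 0.0095, limma). Krt8 was brightest among basal arrays in basal 1.

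The promoters of this list held the CACCTG letters shown above more often than promoters at large. Of its 25 promoter windows, 18 (72%) held CACCTG on either strand, against 6640 of 32851 windows of all genes (20.2%). The genes were listed as known targets of repressors that act through this motif. The higher share can therefore follow from that choice and is no test of the repressors. Windows were used for 19 of the 32 listed genes, Cdh1 not among them. The base composition differed too, with a median GC content of 60.7% in the epithelial windows and 52.7% in all windows. Of 15 epithelial genes with the motif, 4 were higher, 1 was lower, 3 were tested without a call and 7 were not tested. Of 4 without it, 0 were higher, 1 was lower, 2 were tested without a call and 1 was not tested. The share was 17.5% among windows of genes called higher and 19% among those of genes called lower, 21.4% for the myogenic list, 12.5% for the co-repressors and 11.1% for the mesenchymal list.

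Mesenchymal genes, the class that rises with these repressors in epithelial-mesenchymal transition, moved in both directions. Of 24 tested, 13 were lower and 6 higher, where 24.7% of all genes tested were lower, with a median of -0.68, and 7 of the 28 on the list are also markers of FAPs, pericytes or smooth muscle used above. Mmp2, a matrix metalloproteinase, was above background on no injured array and was at least 104-fold lower in injured cells (adjusted p = 2.7e-07, limma). Pdgfrb, a growth factor receptor of pericytes, was at least 3.78-fold lower, Timp3, an inhibitor of metalloproteinases, differed by -3.59 ± 0.35 (SE), and the surface protein Thy1 by -3.35 ± 0.26.

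Cdh2 (N-cadherin), the cadherin that replaces E-cadherin in this transition, was at 3.47 to 4.16 in injured and at 0.26 to 1.95 in basal arrays, a difference of 2.82 ± 0.35. S100a4 was at 3.23 to 3.63 in injured arrays, against 2.73 in basal 1 and -1.08 to -0.61 in basal 2, 3 and 4, a difference of 3.48 ± 0.77. Vim (vimentin), the intermediate filament used as a mesenchymal mark, was at 5.02 to 5.33 in injured and at 1.74 to 3.82 in basal arrays. The number lower in the authors' deposited table was 6.

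Genes of a myogenic list, whose E-boxes were not examined for function here, were largely higher. Of 27 tested, 19 were higher and 3 lower, where 35.5% of all genes tested were higher, with a median difference of 2.28. Myh3, embryonic myosin heavy chain, differed by 4.77 ± 1.33 (SE, adjusted p = 0.0133, limma), with values of 3.02 to 5.13 in injured and -5.04 to 1.69 in basal arrays, 3 of them above background. The acetylcholine receptor subunit Chrnd differed by 4.29 ± 0.71 and the fusion peptide Mymx by 4.25 ± 0.70, with 2 basal arrays above background for Chrnd and 1 for Mymx. Cardiac-type troponin T, Tnnt2, was above background on no basal array and at least 13.9-fold higher in injured cells. Myog (myogenin) was at 2.09 to 3.45 in injured and at -3.11 to 0.03 in basal arrays, 3 of them above background.

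The 3 lower genes were Pax7 (-2.95 ± 0.21), Mef2a, a MADS-box partner of MyoD (-0.73, adjusted p = 7.4e-04), and Myf6 (MRF4), above background on no injured array and at least 2.02-fold lower. The list shares 5 genes with the satellite cell markers.

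The genes whose signal ran most like each member over the 8 arrays were ranked by Pearson's r among 12658 other tested genes with a standard symbol and a value on every array, as a description in which the 8 arrays fall into 2 groups. For Zeb1 they were Acss2 (r = 0.993), Hip1 (0.991) and Rnpc3 (0.99), with differences of -1.90, -1.14 and -2.75. For Zeb2 they were Jak1 (0.996), Arhgef2 (0.992) and Gadd45a (0.991), with differences of -1.09, -0.62 and -1.60. The genes most like Snai2 were Fgfr3 (0.948), Rnd1 (0.935) and Retsat (0.932), and those most like Twist2 were Hipk4 (0.981), Olfr703 (0.977) and Zfp410 (0.972).

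Other probes within 60000 bases of a member were read for the neighbourhood. Zeb1 had 11 such probes, 34339 to 38997 bases downstream of its own on either strand and without a gene name, of which 6 were tested. Of these, 4 were lower in injured arrays and 0 higher, where 25.1% of all probes tested were lower. Of the 4, only 1 was above background on all injured arrays, with a difference of -0.73 (adjusted p = 0.00436 over all probes, limma), and the other 3 were above it on 0, 0 and 2 injured arrays and passed the filter through the basal group. Snai1 had 17, of which 7 were tested with 1 higher and 1 lower, the higher being Spata2 (0.75, adjusted p = 0.00166 over all probes, limma). Twist2 had 8, of which 6 were tested with 0 higher and 1 lower. The single neighbour of Zeb2 and that of Twist1 were not tested.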

How the data were processed

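RNA of 8 sorted satellite cell samples was hybridised to 1 array each. Per the file headers, the intensity of each spot was extracted by Feature Extraction 10.7.3.1, which subtracted background, detrended each array and marked uneven or dim spots, on a design of build mm9. A deposited table of log2 values by the authors, made with limma per the submitters' processing notes by steps that the sources used here do not give, served as an alternative. Its centring is like across columns (medians of 8.05 to 8.16), its log2 scale was read from the values, and its columns run in the same direction as the scanner values.

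Processed signals of non-control spots were put on a log2 scale, each array's 75th percentile was subtracted, outlier spots were left out and spots of a probe averaged. On each array 50.1% to 56.7% of the 59305 non-control spots exceeded background clearly, none was saturated, and the 75th percentile was 104 to 132. Of 55681 probes, 26300 were named by accession, 2044 by current symbol and 355 by synonym from the RefSeq gene table. A gene was read by its brightest probe and tested if that exceeded background clearly on at least 3 of 4 arrays of a group. The test was limma's moderated linear model, version 3.58.1 under R 4.3.3 (residual degrees of freedom 6, prior 2.56, Benjamini-Hochberg, two-sided, threshold 0.05), after the code was tested on simulated data. Intervals are 95%. Summed marker levels add linear values relative to the 75th percentile. A bound sets the bright group's mean against the dim group's mean of the higher of the probe and the dimmest probe well above background on that array.

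The members and all lists were chosen with earlier results of these data known. Named genes were the 6 members, per list up to 4 called genes of largest difference in the direction of most calls and up to 2 in the other, the 3 genes most like each member, and markers of the sort and of other cells (Itga7, Pecam1, Ptprc, Itgam, Pdgfra, Rgs5). Cdh1, Epcam, Ctbp1, Ctbp2, Tcf3, Tcf4, Tcf12, Id3, Col1a2, Laptm5, Tyrobp, Cd3e, Snai3, Vim, Myog, Mef2a, Dcn, Spata2, Xist and Ddx3y were named after their values were seen. So were Notch3, Des, Ncam1, Tek, Calcr, Chodl and Myf5. Some genes that this rule names are not reported here. The same-numbered injured and basal arrays did not deviate together (correlations of 0.00, 0.04, 0.00 and 0.09), so replicate numbers were not treated as pairs. Alternatives covered scaling, background correction, filters, probe choice, variance models, a replicate block and left-out arrays.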

Additional observations from a re-analysis of the deposited data

How the results depend on the processing

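Each result was recomputed under 21 alternatives (9 for the Zeb2 minus Zeb1 offset, 20 for Twist2). Zeb1 and Zeb2 stayed called and lower in 19 of 21 each. In the authors' deposited table Zeb1 was -0.02 (adjusted p = 0.968) and Zeb2 by its brighter probe 0.50 (adjusted p = 0.521), while its second probe was -1.47 (adjusted p = 0.0276), 0 members were lower by their brightest probe, and the offset difference was 0.53 (exact permutation p = 0.2). With injured 1 as the only injured array Zeb1 was -1.17 (adjusted p = 0.0789), Zeb2 -1.16 (adjusted p = 0.127) and 0 members were lower. Snai2 came to 0.16 without basal 1 and 2. With single arrays left out, Zeb1 ranged from -1.09 to -0.87, Zeb2 from -1.21 to -0.86, Snai2 from -0.25 to -0.03, Twist2 from 0.49 to 1.11, called without basal 3 alone (1.11, adjusted p = 0.0446), which made the members called higher 0 to 1, and the offset from -0.30 to 0.01. The causes were not tested.

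With the replicate number as a block, Zeb1 was -0.95 (adjusted p = 0.00364), Zeb2 -1.05 (adjusted p = 0.00908), Snai2 -0.15 (adjusted p = 0.434) and Twist2 0.84 (adjusted p = 0.0687), so no member changed its call. Under the replicate block 2 bHLH partners were higher and 1 Snail stability regulator was lower. The planned block on slide could not be fitted because each slide holds 1 group, and Twist2 has no value among genes above background on all 8 arrays.

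Over all genes, 3281 were higher and 754 lower in the authors' deposited table. There, 10 co-repressors were higher and 0 lower, 0 Snail stability regulators were lower, and 2 bHLH partners were higher and 5 lower. Of the other lists, 0 family relatives were higher and 0 lower, and 4 upstream signals, 6 mesenchymal genes and 1 myogenic gene were lower. With injured 1 alone 751 genes were higher and 980 lower, with 3 co-repressors higher and 0 lower, 0 Snail stability regulators higher and 0 lower, 0 bHLH partners higher, 0 family relatives higher and 1 lower, 1 upstream signal higher and 6 lower, 1 epithelial gene higher and 1 lower, 0 mesenchymal genes higher and 8 lower, and 3 myogenic genes higher. Quantile normalization, with or without normexp, gave 2 co-repressors lower, 1 Snail stability regulator lower and 5 myogenic genes lower, and with normexp 2 upstream signals higher. Normexp with the 75th percentile gave 2 bHLH partners higher and 1 Snail stability regulator lower. Without the filter 1 Snail stability regulator and 4 epithelial genes were lower. Among genes above background on all 8 arrays 4 epithelial genes were higher, and 1 Snail stability regulator and 8 mesenchymal genes were lower. The number of bHLH partners called higher was 3 with the mean of all probes, 2 with array weights and 3 without basal 1 and 2. With limma's trend and robust options 1 Snail stability regulator was lower. With single arrays left out, upstream signals higher ranged from 2 to 4, Snail stability regulators lower from 1 to 3 and bHLH partners higher from 1 to 2. Dim signal limits Snai1 and Twist1, which no alternative could measure, and Twist2 in basal 1 and 2.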
